A study of Mus musculus with 3 samples.

Results

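Interferon-induced genes are the genes that cells switch on after an interferon binds its receptor. The 40 genes described here were taken as a named list: 24 antiviral effectors and other induced proteins, 3 sensors of viral nucleic acid, 4 transcription factors, 7 GTPases and 2 chemokines. All 40 symbols had a probe among the 19070 features of the files. Their raw counts of unique molecular identifiers (UMIs, each standing for 1 captured molecule) were summed by cell class and library. Levels are given as CPM, the UMIs of a gene scaled to 1000000 UMIs of the same class and library.

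Cells were isolated from full-thickness excisional skin wounds of 5 mm on the back of female C57BL/6J mice wounded at postnatal day 50, and the tissue was taken on day 5 with a margin of 2 mm of surrounding skin. In all groups a sutured splint held the wound open against contraction. There were 3 libraries: wounds with no gel (called untreated here, although the sample carries the title Sham), wounds filled with 20 µL of gelatin methacryloyl (GelMA, a gelatin hydrogel hardened in place with UV light for 1 min), and wounds filled with GelMA loaded with apoptotic neutrophils (AN-GelMA). Tissue was fixed for 24 h, digested with Liberase TH and profiled with a 10x Genomics Flex assay, in which pairs of probes read fixed RNA. Each group had 1 library, and no count of mice per library appears in the labels. The AN-GelMA files also carry the word heat, which the labels do not explain. No comparison between groups could therefore be tested. The intervals below are 95% exact intervals that cover counting error only, not differences between animals.

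Type I interferons signal through Ifnar1 and Ifnar2 to a complex that holds Stat2 and Irf9 and binds the interferon-stimulated response element (ISRE) in front of genes such as Isg15, Rsad2 and the Oas family. Interferon gamma signals through Ifngr1 and Ifngr2 and acts on the gamma-activated site (GAS) in front of genes such as Irf1 and the guanylate-binding proteins. In skin these genes are known as the antiviral program of the epidermis and dermis, and injury itself can induce them.

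The response elements could be read directly in the DNA around the starts of the genes. RefSeq start sites on the mouse build GRCm38.p6 gave windows of 300 bases (250 before and 50 after the start) for 34 of the 40 members. The ISRE core, spelled GAAANNGAAA and searched on both strands, was present in 19 of the 34 genes (55.9%), against 3.44% of all 32851 windows and 3.65% of 14046 other genes with a probe. The GAS core, spelled TTCNNNGAA, was present in 9 of the 34 (26.5%), against 8.3% of all windows, and 6 genes held both. Matches of the 2 words were counted separately, and overlapping matches were kept. By role, the windows of 6 of 7 GTPases and 10 of 20 antiviral effectors held an ISRE core. So did those of 1 of 4 transcription factors, 1 of 2 chemokines and the 1 sensor that had a window. In that sensor, Ifih1, and in the effector Eif2ak2 the core lay after the start and not in front of the gene. Matches are descriptions of letters and not of binding.

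Below are the 250 bases before the start of 5 members, chosen because they show the arrangements that occur: a run of overlapping ISRE cores (Isg15), a single core (Rsad2), cores next to the start (Oas1a), both elements (Gbp5) and a GAS core alone (Irf1). Capitals mark the matches, and each sequence runs 5′ to 3′ toward the start of its gene.
Isg15: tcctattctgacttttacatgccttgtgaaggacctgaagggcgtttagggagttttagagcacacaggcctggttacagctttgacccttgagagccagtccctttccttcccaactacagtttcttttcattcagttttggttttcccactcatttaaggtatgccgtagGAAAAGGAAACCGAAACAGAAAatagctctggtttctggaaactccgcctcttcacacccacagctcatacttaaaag
Rsad2: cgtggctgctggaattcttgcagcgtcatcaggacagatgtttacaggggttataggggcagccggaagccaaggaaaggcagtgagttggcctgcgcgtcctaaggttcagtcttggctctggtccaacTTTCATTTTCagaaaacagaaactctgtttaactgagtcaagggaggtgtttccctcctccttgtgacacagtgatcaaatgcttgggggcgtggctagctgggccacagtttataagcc
Oas1a: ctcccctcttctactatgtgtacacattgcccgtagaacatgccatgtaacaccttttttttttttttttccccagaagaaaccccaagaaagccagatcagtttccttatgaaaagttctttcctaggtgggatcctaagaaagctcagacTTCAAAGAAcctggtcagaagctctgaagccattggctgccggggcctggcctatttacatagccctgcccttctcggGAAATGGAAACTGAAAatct
Gbp5: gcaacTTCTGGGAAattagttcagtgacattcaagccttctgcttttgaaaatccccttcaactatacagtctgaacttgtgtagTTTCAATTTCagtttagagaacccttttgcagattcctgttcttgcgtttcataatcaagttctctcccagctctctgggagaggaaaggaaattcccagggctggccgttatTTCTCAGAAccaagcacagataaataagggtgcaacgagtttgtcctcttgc
Irf1: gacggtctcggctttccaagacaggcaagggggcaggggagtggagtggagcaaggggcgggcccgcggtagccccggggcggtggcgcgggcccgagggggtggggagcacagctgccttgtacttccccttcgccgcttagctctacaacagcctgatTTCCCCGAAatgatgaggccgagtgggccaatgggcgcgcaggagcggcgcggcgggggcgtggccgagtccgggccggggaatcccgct
The Isg15 sequence lies at chr4:156200819-156201068, minus strand, and its 3 overlapping ISRE cores end 68, 62 and 56 bases before the start. The Rsad2 sequence lies at chr12:26456453-26456702, minus strand, with its core 110 bases before the start. Oas1a (chr5:120907526-120907775, minus strand) had ISRE cores that end 10 and 4 bases before the start and a GAS core at 89. Gbp5 (chr3:142496684-142496933, plus strand) had its ISRE core at 155 and GAS cores at 236 and 43. Irf1 (chr11:53769764-53770013, plus strand, the upstream of its 2 windows) had a GAS core at 81. Neither word was found in the windows of Oasl2, Slfn4, Xaf1, Herc6, Irf7 or Irf9, which says only that these letters are not in those 300 bases.

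The libraries held 6073 barcodes (untreated), 11449 (GelMA) and 9648 (AN-GelMA), with median UMIs per barcode between 1125 and 1485. Between 201 and 242 barcodes of each library also occurred in another. After filtering, clustering without the 40 genes and naming by marker genes, 11 classes had at least 50 cells in every library. Their mix differed between libraries: hair-forming cells numbered 227 in untreated, 2730 in GelMA and 69 in AN-GelMA, and macrophages 645, 382 and 1517. The classes are marker-defined ("macrophage-like" and so on, shortened below to the plain name), and all 14 macrophage markers were detected in the macrophages of each library.

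Summed over the 40 genes, macrophages had the highest level of the 11 classes in all 3 libraries. The sum was 7332 CPM in untreated, 7849 CPM in GelMA and 10131 CPM in AN-GelMA wounds. Dendritic cells came second with 5853, 6408 and 6661 CPM, from 68 to 196 cells. Their intervals lay below those of macrophages in each library, while dendritic and endothelial intervals touched in the untreated library (5316 to 6429 against 5035 to 5469 CPM). Few dendritic cells held many of the molecules: the 5% with most member UMIs held 34.0%, 46.1% and 28.9% of them. Without those cells the dendritic sums were 4295, 3706 and 5225 CPM. Endothelial cells treated alike had 4519, 3858 and 3679 CPM, so that dendritic cells stood above them in AN-GelMA alone. Blood endothelial cells had 5249, 4952 and 4581 CPM and fibroblasts 4476, 3528 and 5365 CPM, so that these 2 classes changed places in the AN-GelMA library. Keratinocytes, the largest class, ranked eighth with 1399, 1198 and 1588 CPM. The lowest levels were in sebocytes (786 to 1048 CPM), hair-forming cells (363 to 818 CPM) and skeletal muscle (369 to 727 CPM).

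**Figure D1:**
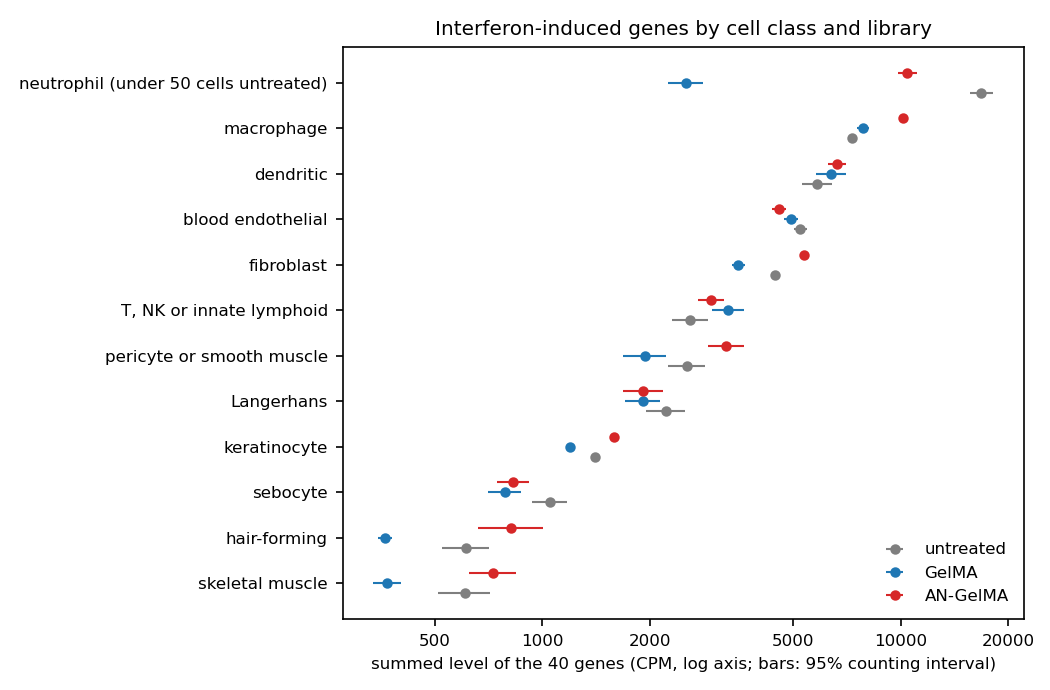
Summed level of the 40 interferon-induced genes (CPM, log axis) in each cell class, with 1 point per library and 95% counting intervals. Macrophages are highest of the 11 classes in all 3 libraries (7332 to 10131 CPM), and neutrophils, shown apart because the untreated library has 39 of them, range from 2517 to 16815 CPM.

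The gap between macrophages and keratinocytes was wide across the members. Not all immune classes stood as high as macrophages. The summed level was 2210, 1911 and 1916 CPM in Langerhans cells. In T, NK or innate lymphoid cells it was 2585, 3307 and 2963 CPM. The median member was 2.62 log2 units higher in macrophages than in keratinocytes in untreated, 3.03 in GelMA and 3.04 in AN-GelMA wounds. At 1.5 times or more, 31 of 34, 34 of 36 and 35 of 39 members with enough UMIs were higher in macrophages, where the same held for 24.8%, 27.1% and 25.4% of all features. Macrophages exceeded fibroblasts by less, with medians of 0.60, 1.17 and 0.64 log2 units. Fibroblasts in turn exceeded keratinocytes by medians of 1.96, 1.82 and 2.03 log2 units.

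Among the antiviral effectors, members of the 2′-5′ oligoadenylate synthetase family sense double-stranded RNA or resemble the enzymes that do. Those listed, Oas1a, Oas2, Oas3, Oasl1 and Oasl2, were highest in macrophages in all 3 libraries. Here and below, the highest class is the highest of the 11, which leave out neutrophils. Oasl2 stood at 936 CPM in untreated, 770 in GelMA and 1225 in AN-GelMA macrophages, against 169, 95.7 and 185 CPM in keratinocytes. Oas1a stood at 467, 406 and 615 CPM in macrophages and 48.8, 44.2 and 69.4 CPM in keratinocytes. Slfn4, a Schlafen family gene of myeloid cells, stood at 899, 506 and 2024 CPM in macrophages and 37.2, 9.81 and 60.5 CPM in keratinocytes. For Oasl2 and Slfn4 the macrophage interval lay above that of every other of the 11 classes in all 3 libraries. Neutrophils, described further below, had more Slfn4 than macrophages in each library and more Oasl2 in the untreated library. Oas1a, Ifit3, Trim30a and Slfn4 have close relatives in the mouse genome, and the labels do not say how the probes tell them apart.

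The other effectors with most UMIs were spread more evenly. Herc6, a ligase that joins Isg15 to proteins, had 465, 598 and 666 CPM in macrophages, close to 483, 482 and 450 CPM in endothelial cells. Xaf1, which promotes cell death, had 407, 384 and 331 CPM in endothelial cells and 176, 385 and 279 CPM in macrophages. Ifi35 varied less, between 128 and 300 CPM over macrophages, dendritic cells, endothelial cells, fibroblasts and keratinocytes.

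The sensors followed macrophages. Ifih1, a detector of long double-stranded RNA, had 363, 447 and 482 CPM in macrophages and 164, 125 and 172 CPM in keratinocytes. Dhx58, which modulates the other sensors of its family, had 123, 136 and 149 CPM in macrophages and at most 22.8 CPM in keratinocytes. Zbp1, a sensor of left-handed nucleic acid, was the sensor with a high level in fibroblasts too, at 312, 156 and 415 CPM, against 362, 361 and 404 CPM in macrophages.

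The transcription factors showed a flatter order of classes. Irf1, the early factor of the interferon gamma pathway, was highest in dendritic cells (484, 500 and 664 CPM) and stood at 97.9, 67.0 and 91.4 CPM in keratinocytes. Irf9, the DNA-binding subunit of the type I complex, had 118, 168 and 127 CPM in keratinocytes and 128, 154 and 148 CPM in macrophages, so that it did not share the wide gap between the classes. Stat2, its partner, had 188, 240 and 290 CPM in macrophages, and Irf7, which amplifies the production of type I interferon, had 246, 314 and 307 CPM.

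The GTPases, which act on the membranes of pathogen-containing vacuoles, were often highest in blood endothelial cells: Gbp3, Gbp5 and Igtp were so in all 3 libraries. Gbp3 had 85.5, 105 and 117 CPM in endothelial cells and 31.1, 32.6 and 45.6 CPM in macrophages, and its endothelial interval was above that of the next class in all 3 libraries. Gbp5 had 134, 216 and 117 CPM in endothelial cells and 40.5, 50.3 and 51.3 CPM in macrophages. The effector Ifi44 shared this place, with 67.0, 110 and 92.6 CPM in endothelial cells. Igtp had 23.1, 40.2 and 23.8 CPM in that class, from 9 to 16 UMIs. Gbp2 had 87.8, 141 and 106 CPM in endothelial cells against 44.6, 94.7 and 38.0 CPM in macrophages, and Gbp7 67.0, 90.4 and 60.9 CPM against 52.7, 101 and 58.3 CPM. Irgm1 had 31.1, 62.2 and 39.9 CPM in macrophages. For Gbp2, Gbp7 and Irgm1 the highest class differed between libraries.

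The chemokines Cxcl9 and Cxcl10, which draw T cells through Cxcr3, were sparse. Cxcl10 had 43.2, 53.3 and 51.9 CPM in macrophages. Cxcl9 had 8, 4 and 1 UMIs there. In all, 17 of the 40 members had the same highest class in the 3 libraries, of which 9 were highest in macrophages, 4 in endothelial cells and 4 in dendritic cells, and 13 of the 17 had at least 20 UMIs in that class in each library. The other 23 changed class between libraries.

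The gel loaded with apoptotic neutrophils was next compared with the gel alone, groups that differ in the cargo of the gel. A member counted as measured in a class with at least 30 UMIs there over the 3 libraries, and as higher or lower at a ratio of 1.5 times or more. In fibroblasts, the interferon-induced genes were higher in AN-GelMA. The summed level was 5365 against 3528 CPM, a ratio of 1.52, and the median member was 0.49 log2 units higher, against -0.10 for the median of all measured features. Of 40 members, 17 were higher and 0 lower, where 10.2% of all features were higher and 17.3% lower. The counting interval left out equality for 14 of the 17.

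Of these 17, 13 were among the 24 antiviral effectors, 1 among the 3 sensors (Zbp1), 2 among the 7 GTPases and 1 among the 2 chemokines (Cxcl10). Rsad2, which makes a chain-terminating nucleotide, had 59.9 CPM in untreated, 36.1 in GelMA and 129 in AN-GelMA fibroblasts, a log2 ratio of AN-GelMA over GelMA of 1.83 (1.25 to 2.48). Zbp1 had 312, 156 and 415 CPM (1.41, 1.13 to 1.71). Trim30a, a ligase that restrains inflammatory signalling, had 198, 85.1 and 238 CPM (1.48, 1.10 to 1.89). In these 3 genes the GelMA library was the low library and the AN-GelMA library the high library.

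Oas2 had 118, 53.4 and 150 CPM (1.49, 1.00 to 2.02) and Oasl1, from 44, 9 and 108 UMIs, had a log2 ratio of 1.77 (0.79 to 2.94). Ifi44 had 21.8, 7.21 and 40.1 CPM (2.48, 1.20 to 4.13), and Slfn4 98.0, 11.5 and 90.1 CPM (2.96, 1.96 to 4.2). Cxcl10 had 12.4, 4.33 and 33.6 CPM from 16, 3 and 82 UMIs (2.96, 1.36 to 5.26). For Slfn4 the untreated and AN-GelMA levels were alike and the GelMA level low, whereas Rsad2, Ifi44 and Cxcl10 were higher in AN-GelMA than in both others. The 4 transcription factors had a median log2 ratio of -0.01, and 0 of 4 were past 1.5 times in fibroblasts, macrophages, endothelial cells or keratinocytes.

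Keratinocytes showed the same direction at a lower level. The sum was 1588 against 1198 CPM, a ratio of 1.33, with a median member ratio of 0.27 log2 units against -0.08 for all features. Of 36 measured members, 11 were higher and 0 lower, where 6.5% of features were higher and 19.1% lower, and for all 11 the counting interval left out equality. Oasl2 had 169, 95.7 and 185 CPM in untreated, GelMA and AN-GelMA (log2 ratio of the last 2 0.95, 0.83 to 1.08). Slfn4, with the CPM given above, had a log2 ratio of 2.62 (2.30 to 2.96), and Trim30a, with 9.01, 6.71 and 16.0 CPM, a ratio of 1.26 (0.81 to 1.72). Gbp2 had 18.3, 13.3 and 27.3 CPM, and Herc6 71.6, 54.3 and 89.3 CPM. Cxcl10 had 16.6, 6.09 and 12.9 CPM, so that its untreated level was the highest of the 3. The mix of keratinocytes differed between libraries: the cluster led by Dmbt1 and Foxa1, closest to the outer root sheath of the hair follicle, had 144 cells in untreated, 1557 in GelMA and 90 in AN-GelMA wounds, with summed levels of 1011, 947 and 1500 CPM. In basal and suprabasal keratinocytes alone, 6 of 35 members were higher and 1 lower, with a median of 0.18, where 9.62% of features were higher and 14.2% lower.

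In macrophages, the class with the highest level of the 11, members were called in both directions. Their summed level was 10131 against 7849 CPM, but the median member ratio was 0.03 log2 units against -0.08 for all features. Of 39 measured members, 8 were higher and 7 lower, where 11.3% of features were higher and 17.5% lower. Scaled by the median ratio of all features in place of total UMIs, 8 were higher and 3 lower. The balance moved with the cells used, and in both directions. In cells of at least 1000 UMIs 12 of 35 were higher and 3 lower, with a median of 0.45. In the cluster with Cd163 and Mrc1 alone 9 of 39 were higher and 2 lower, with a median of 0.20. In cells thinned to 800 UMIs each, 5 of 35 were higher and 9 lower, with a median of -0.08. There 17.4% of features were higher and 17.6% lower. Without Slfn4 the summed levels were 8107 against 7342 CPM.

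The members that were higher in AN-GelMA macrophages beyond counting error were antiviral effectors. Slfn4 had 899, 506 and 2024 CPM in the 3 libraries (log2 ratio of AN-GelMA over GelMA 2.00, 1.78 to 2.23). Rsad2 had 312, 151 and 343 CPM (1.19, 0.77 to 1.63), and Oas3 62.1, 59.2 and 110 CPM (0.90, 0.23 to 1.64). Oasl1 (0.93, 0.47 to 1.43), Oasl2 (0.67, 0.48 to 0.86) and Oas1a (0.60, 0.34 to 0.87) were higher as well. Lower beyond counting error were the GTPases Gbp2 and Gbp7 and Parp14, an ADP-ribosyltransferase: Gbp2 had 44.6, 94.7 and 38.0 CPM (-1.32, -1.96 to -0.65), Gbp7 52.7, 101 and 58.3 CPM (-0.79, -1.37 to -0.18), and Parp14 271, 536 and 342 CPM (-0.65, -0.89 to -0.40). For these 3 the GelMA level was the high level of the 3 libraries, and of the 7 GTPases 3 were lower and 0 higher.

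In blood endothelial cells more members were lower than higher in AN-GelMA. The median ratio was -0.23 log2 units against -0.01 for all features. Of 32 measured members 1 was higher and 9 lower, where 13.5% of features were higher and 15.9% lower, and the summed levels were 4581 against 4952 CPM. In cells of at least 1000 UMIs 2 of 25 were higher and 5 lower, with a median of -0.0336. With the highest-scoring doublets kept the median was -0.0749, and the log2 ratio of the sums turned to 0.04. Gbp5 had 134, 216 and 117 CPM (-0.89, -1.45 to -0.35), Rsad2 113, 148 and 84.7 CPM (-0.81, -1.47 to -0.16) and Parp14 226, 266 and 167 CPM (-0.67, -1.15 to -0.21). Oas2 rested on few molecules, 13, 31 and 3 UMIs, with a log2 ratio of -3.29 (-5.65 to -1.61). The member that was higher was Slfn4, with 360, 105 and 424 CPM (2.01, 1.51 to 2.53). Slfn4 was the only member of the 40 that was higher by 1.5 times in all 4 classes.

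**Figure D2:**
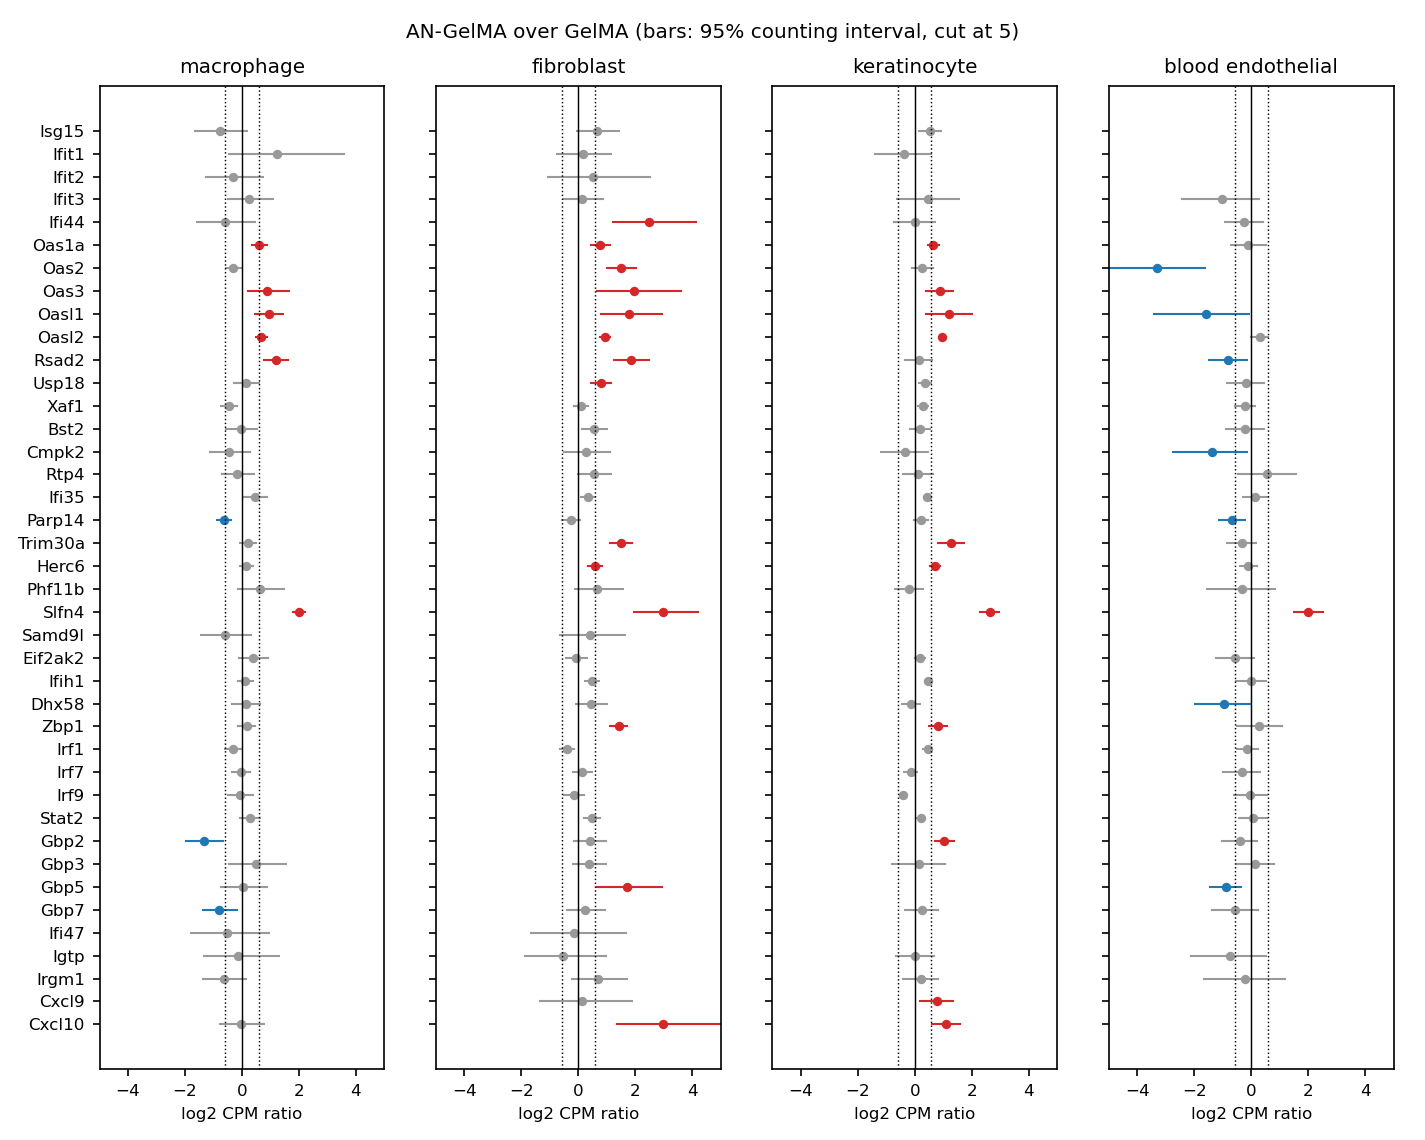
Log2 ratio of AN-GelMA over GelMA for each measured member in 4 classes, with 95% counting intervals and members ordered by role. Red (higher) and blue (lower) mark ratios of 1.5 times or more whose interval leaves out 0, and dotted lines mark 1.5 times; intervals are drawn to 5 at most. Fibroblasts have 14 red and 0 blue members, keratinocytes 11 and 0, macrophages 6 and 3, and endothelial cells 1 and 7.

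The gel alone was compared with no gel. This comparison and the preceding one share the GelMA library, so a low or high value there enters both with opposite sign. Fibroblasts had lower levels with the gel: 14 of 40 members were lower and 3 higher, where 11.1% of features were lower and 17.1% higher, and the median ratio was -0.21. Trim30a (198 and 85.1 CPM), Oas2 (118 and 53.4 CPM), Zbp1 (312 and 156 CPM) and Usp18 (189 and 110 CPM), the protease that removes Isg15, were among them. In keratinocytes 8 of 36 were lower and 3 higher, against 7.33% and 15.8% of features, with a median of -0.21. In basal and suprabasal keratinocytes alone 7 of 35 were higher and 4 lower, with a median of -0.0768, against 12.3% and 11.6% of features. In the whole class, Cxcl10 (16.6 and 6.09 CPM) and Cxcl9 (10.4 and 4.85 CPM) were both lower.

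In macrophages 10 of 39 members were higher and 2 lower with the gel, against 18.9% and 13.1% of features, and the median ratio was 0.32 against 0.09 for all features. In the cluster with Cd163 and Mrc1 alone, which held 343 of the 382 GelMA macrophages, 7 of 39 were higher and 3 lower, the median was -0.04 and the log2 ratio of the sums was -0.17. In the whole class, Xaf1 (176 and 385 CPM), Parp14 (271 and 536 CPM), Gbp2 (44.6 and 94.7 CPM), Gbp7 and Irgm1 (31.1 and 62.2 CPM) were higher, while Rsad2 (312 and 151 CPM) and Slfn4 (899 and 506 CPM) were lower. Within the Cd163 cluster the counting intervals of the 2 libraries overlapped for Rsad2 (203 and 160 CPM), Irgm1 (50.0 and 71.7 CPM), Gbp2 and Gbp7. They stood apart there for Slfn4 (1219 and 577 CPM), Xaf1 and Parp14. In endothelial cells 7 of 32 were higher and 2 lower, against 16.3% and 12.3%, with a median of 0.01. The 3 higher GTPases of 6 there included Gbp5 (134 and 216 CPM) and Gbp2 (87.8 and 141 CPM), and the 2 lower members were Slfn4 and Oasl2 (767 and 439 CPM).

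The loaded gel was last compared with no gel. Macrophages had 7 of 39 members higher and 0 lower, against 7.28% and 7.67% of features, with a median of 0.32. Fibroblasts had 6 of 40 higher and 1 lower (4.56% and 5.87%), with a median of 0.27. In keratinocytes 8 of 36 were higher and 1 lower (2.72% and 7.36%), with a median of 0.19. In endothelial cells 1 of 32 was higher and 5 lower (10.3% and 9.23%), with a median of -0.14.

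Antiviral effectors were 6 of the 7 higher members in macrophages and 5 of the 6 in fibroblasts. They were also most of the members measured, 24 of 39 and 24 of 40. Rsad2 in fibroblasts had 129 CPM in AN-GelMA and 59.9 CPM in untreated wounds (log2 ratio 1.10, 0.74 to 1.48). In macrophages, Phf11b had 73.5 and 37.8 CPM (0.96, 0.35 to 1.61) and Stat2 290 and 188 CPM (0.63, 0.35 to 0.91). Ifit1, which binds RNA without a methylated cap, had 20.9 and 4.05 CPM in macrophages, from 33 and 3 UMIs (2.37, 0.69 to 4.72). In keratinocytes Isg15, the ubiquitin-like modifier, had 16.9 and 8.54 CPM (0.99, 0.44 to 1.56).

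Of the 3 classes with the lowest levels, skeletal muscle and hair-forming cells had the order of fibroblasts and keratinocytes, with GelMA lowest and AN-GelMA highest. Skeletal muscle had summed levels of 608, 369 and 727 CPM and hair-forming cells of 612, 363 and 818 CPM in untreated, GelMA and AN-GelMA wounds. The log2 ratio of the sums of AN-GelMA over untreated was 0.26 (-0.07 to 0.58) in skeletal muscle, an interval that held equality. In hair-forming cells it was 0.42 (0.04 to 0.79). Sebocytes had 1048, 786 and 830 CPM, with the untreated library highest. Free RNA in the droplets, which gives all cells of a library some of each abundant molecule, was not measured apart, and its part in these differences was not tested. Thinned to 800 UMIs a cell, 3 or more of the 40 genes were seen in 44.4%, 34.3% and 46.0% of fibroblasts (912, 367 and 1414 cells) and in 61.1%, 61.3% and 69.0% of macrophages (545, 160 and 976 cells). Shallower cells were left out, 222 of 382 in GelMA macrophages. The same share was 1.64%, 0.29% and 2.38% of skeletal muscle cells and 9.19%, 7.80% and 10.9% of keratinocytes. At equal depth the fibroblast and macrophage shares were far above those of muscle in each library, which compares classes and not libraries. Between libraries, the ratio of the sums of AN-GelMA over GelMA was 1.97 in skeletal muscle, 2.25 in hair-forming cells and 1.05 in sebocytes. In fibroblasts it was 1.52. Before thinning the fibroblast shares were 60.5%, 50.4% and 62.0%, the macrophage shares 73.0%, 71.9% and 78.0%, and the muscle shares 7.38%, 2.32% and 9.52%.

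The largest fibroblast cluster was led by Pi16 and Tnxb, genes of adventitial fibroblasts. Its summed level was 5656 CPM in untreated (491 cells), 3492 in GelMA (422 cells) and 7330 in AN-GelMA (1033 cells). There 28 of 36 measured members were higher in AN-GelMA than in GelMA and 0 lower, where 12.8% of features were higher and 19.2% lower, and the median ratio was 1.10. Rsad2 in this cluster had 105, 22.1 and 232 CPM, and Zbp1 459, 142 and 596 CPM. Ifi205, itself an interferon-inducible gene, was among the leading genes of this cluster by fold.

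The cluster led by Tnn and Col12a1, a matrix-building type, did not share this order. Its summed level was 2839 CPM in untreated (388 cells), 3730 in GelMA (210 cells) and 2637 in AN-GelMA (636 cells), so that the GelMA library was the highest. Of 26 measured members 12 were lower in AN-GelMA than in GelMA and 2 higher, with a median of -0.56, where 14.0% of features were lower and 12.6% higher. Few cells held many of the molecules: the 5% of cells with most member UMIs held 34.3% of them in GelMA, and without those cells the sums were 2294, 2658 and 2066 CPM. The cluster led by Nos2 and Saa3 had 5305 CPM in untreated (187 cells) and 5929 CPM in AN-GelMA (360 cells). Its 19 GelMA cells, with 79 member UMIs, stood at 2412 CPM (1909 to 3006), so that this cluster too was lowest in GelMA. The difference between the clusters was not tested.

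Macrophages also fell into 2 clusters. The cluster with Cd163 and Mrc1, of resident type, had summed levels of 9670, 8609 and 12132 CPM (381, 343 and 1119 cells). The cluster led by Mmp12, with Spp1, had 4871 CPM in untreated (264 cells) and 6071 in AN-GelMA (398 cells), and its 39 GelMA cells stood at 2864 CPM (2389 to 3405). The mix of the class thus differed between libraries, and GelMA macrophages were nearly all of the Cd163 type. In that cluster alone the median ratio of GelMA over untreated was -0.04, in place of 0.32 for the whole class. For AN-GelMA over GelMA it was 0.20, with 9 of 39 members higher and 2 lower.

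**Figure D3:**
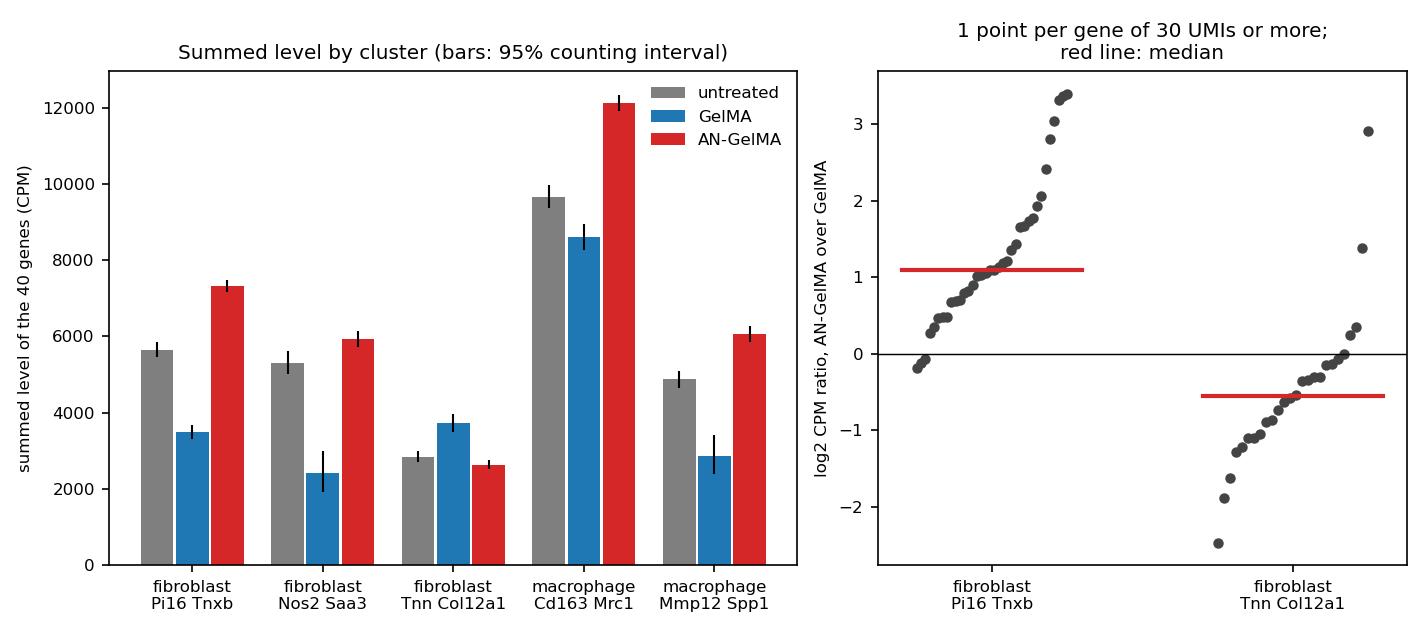
Left, summed level of the 40 genes (CPM) in 3 fibroblast and 2 macrophage clusters by library, with 95% counting intervals. Right, log2 ratio of AN-GelMA over GelMA of each measured member in the Pi16 and the Tnn fibroblast clusters, with the medians of 1.10 and -0.56 as lines.

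Neutrophils had the widest range of all classes, from few cells. Their summed level was 16815 CPM in 39 untreated cells, 2517 CPM in 93 GelMA cells and 10433 CPM in 100 AN-GelMA cells. Of 14 measured members 12 were higher in AN-GelMA than in GelMA and 0 lower, where 25.8% of features were higher and 18.5% lower. Slfn4 alone had 8613, 977 and 5467 CPM, and without it the sums were 8202, 1540 and 4967 CPM. Oasl2 (1306, 182 and 1049 CPM) and Trim30a (484, 66.2 and 520 CPM) were also lowest in GelMA. Whether neutrophils of the AN-GelMA library came from the gel or from the mouse cannot be told apart.

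Other neutrophil genes differed between these cells too. Csf3r had 2105, 588 and 3318 CPM, whereas S100a8 had 2202, 5298 and 3558 CPM, so that GelMA neutrophils were high in S100a8 and low in Csf3r. Slfn4 is abundant in neutrophils, and 9 neutrophil markers were therefore summed in the other classes. These 9 are the 12 markers of the naming list without S100a8, S100a9 and Lcn2. They gave 209, 225 and 319 CPM in macrophages, 36.6, 40.4 and 56.5 CPM in fibroblasts, 18.5, 12.5 and 23.8 CPM in endothelial cells and 58.3, 60.7 and 81.5 CPM in keratinocytes, with 1 to 7 of the 9 markers at 0. In untreated, GelMA and AN-GelMA wounds, the markers at 0 numbered 3, 4 and 3 in macrophages and 2, 6 and 4 in fibroblasts. They numbered 5, 7 and 7 in endothelial cells and 4, 1 and 1 in keratinocytes. From AN-GelMA to GelMA these sums differed by smaller ratios than Slfn4 in each of the 4 classes. In neutrophils themselves the marker sum was 3000, 1755 and 4597 CPM, with 4, 0 and 1 of the 9 markers at 0. There too it differed by a smaller ratio than Slfn4, both from AN-GelMA to GelMA and from untreated to GelMA. From untreated to GelMA, Slfn4 was lower in all 4 classes and the marker sum in endothelial cells alone. Csf3r by itself had 10.4, 2.58 and 14.2 CPM in keratinocytes, the order of Slfn4 there, and 145, 163 and 272 CPM in macrophages. The part of neutrophil RNA in the Slfn4 levels was not tested.

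**Figure D4:**
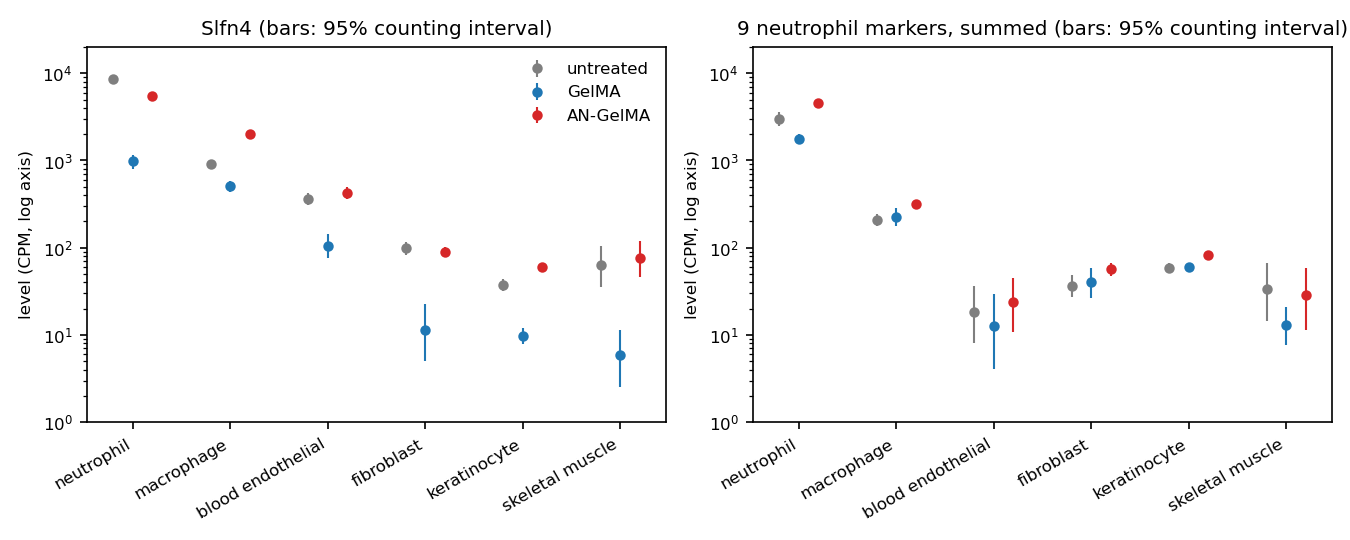
Level of Slfn4 and the summed level of 9 neutrophil markers (CPM, log axis) in 6 classes by library, with 95% counting intervals. Slfn4 is lowest in the GelMA library in neutrophils, macrophages, fibroblasts, endothelial cells and keratinocytes. The marker sum is lowest there in neutrophils and endothelial cells, and not in macrophages, fibroblasts or keratinocytes. The part of neutrophil RNA in the Slfn4 levels was not tested.

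The rest of the interferon pathway was read from a list of 135 further genes with a probe. The ligands were at the limit of detection: over all cells of the 3 libraries Ifnb1 had 34 UMIs, Ifna2 44, Ifna4 42, Ifnk 27 and Ifng 64. Ifnar1, a subunit of the type I receptor, had 374, 361 and 396 CPM in macrophages and 70.2, 60.5 and 66.3 CPM in keratinocytes. Ifnlr1, the receptor of interferon lambda, had the opposite order, at 42.2, 46.2 and 35.9 CPM in keratinocytes and with 3, 2 and 3 UMIs in macrophages.

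In AN-GelMA over GelMA, 22 of 98 measured pathway genes were higher and 8 lower in fibroblasts, 19 of 106 and 8 in keratinocytes, 11 of 105 and 7 in macrophages, and 2 of 85 and 22 in endothelial cells. The shares of all features, given above for the members, were 10.2% and 17.3% in fibroblasts, 6.5% and 19.1% in keratinocytes, 11.3% and 17.5% in macrophages and 13.5% and 15.9% in endothelial cells, so that the count of higher genes in macrophages was near that of all features. The median log2 ratios were 0.25, 0.16, -0.03 and -0.30, in the same order of classes as those of the 40 members. In fibroblasts Ifi205 (596 and 1230 CPM in GelMA and AN-GelMA), the feedback inhibitor Socs3 (90.9 and 222 CPM) and Oas1g (17.3 and 68.0 CPM) were higher and Ifi27 (547 and 202 CPM) was lower. In macrophages the kinase Ikbke (278 and 710 CPM) and the ligase Trim25 (862 and 1641 CPM) were higher. Irgm2 (50.3 and 17.1 CPM) and Mavs (59.2 and 24.7 CPM) were lower there. In endothelial cells Sp100 (474 and 267 CPM) and Ly6e (301 and 172 CPM) were lower and Ikbke (12.6 and 52.9 CPM) was higher. In keratinocytes Trim25 (218 and 383 CPM) and Ddx60 (15.1 and 33.7 CPM) were higher. Irf3 (63.3 and 38.1 CPM) and Helz2 (21.2 and 11.6 CPM) were lower there. The pathway genes named are examples of those whose interval left out equality.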

How the data were processed

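The deposited files hold, for each library, raw UMI counts per feature and cell barcode, which the authors made with Cell Ranger against the GRCm39 (mm39) build, per the submitters' processing notes; no normalization had been applied. The libraries summed to 8945496 (untreated), 21613482 (GelMA) and 14156692 UMIs (AN-GelMA).

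Barcodes under 400 UMIs or 250 genes, or over 10% mitochondrial UMIs, were removed (34, 147 and 36). Scrublet called 0 doublets in each library and was taken not to have worked; the 5% of cells with the highest score were removed instead (314, 620 and 499), which left 5725, 10682 and 9113 cells. Cells were clustered with Scanpy 1.11.5 (2000 variable genes without the members and the pathway list, 30 principal components, 15 neighbours, Leiden resolution 1, leidenalg 0.10.2) and clusters were named from marker lists. UMIs were summed by class and library and divided by the class total to give CPM, with exact Poisson intervals; ratios between libraries have exact binomial intervals. Where a library was at 0, ratios used a floor of 3 UMIs. With 1 library per group no test was made; the script was tested on simulated data.

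Members named by class were the up to 6 of each role with most UMIs and those with the same highest class in 3 libraries and at least 20 UMIs in each; members named in a comparison were up to 8 in each direction at 1.5 times or more whose interval left out equality, ordered by the interval bound nearest to equality. Genes named within single clusters or for detection in the same cells were chosen after their values were seen. The members, gene lists and rules were chosen with earlier results of these data known. Alternatives covered the doublets, cell and feature minimums, scaling, clustering, the fold and single clusters.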

Additional observations from a re-analysis of the deposited data

Results flagged for a closer look

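Macrophages, fibroblasts, blood endothelial cells and keratinocytes were compared in pairs under the same contrast, as were the clusters within fibroblasts. In 5 pairs the median log2 ratios of the interferon-induced genes had opposite signs and the interval of each median, taken over its members, which are not replicates, left out 0. Other pairs had medians of opposite sign with an interval that held 0. None of these differences was tested, since each group has 1 library. For AN-GelMA over GelMA, the fibroblast median (0.49) exceeded that of blood endothelial cells (-0.23) by 0.73, and the keratinocyte median (0.27) exceeded it by 0.51. Within fibroblasts, the median of the Pi16 and Tnxb cluster (1.10) exceeded that of the Tnn and Col12a1 cluster (-0.56) by 1.65. For GelMA over untreated, the macrophage median (0.32) exceeded the fibroblast median (-0.21) by 0.54. In the Cd163 and Mrc1 cluster alone the macrophage median of this contrast was -0.0389, below 0, and it was 0.11 to 0.14 under 3 other settings. In the same contrast the Tnn and Col12a1 cluster (0.48) exceeded the Pi16 and Tnxb cluster (-0.39) by 0.87. The pairs of fibroblast clusters in the 2 contrasts share the GelMA library.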

How the results depend on the processing

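No paired analysis was possible because a group holds a single library. Under the alternative settings, 144 main values moved by less than their spread and 15 moved further. Among single members and sums, 1071 stayed, 178 moved and 9 were counted as changed in sign. That last count left out some changes of sign in smaller values. The log2 ratio of the sums of GelMA over untreated was 0.10 in macrophages and -0.17 in their Cd163 cluster. In fibroblasts it was -0.34, and 0.39 in the Tnn cluster. Macrophages ranked first in every library under every setting that ranked the classes, while the second class was dendritic, endothelial or fibroblast; the Mmp12 macrophage cluster alone was not ranked, and its 4871 CPM in untreated and 6071 in AN-GelMA lie below those of dendritic cells. With 39 cells in GelMA, that cluster was not compared with GelMA. With cells of at least 1000 UMIs, the macrophage median of AN-GelMA over GelMA was 0.45, that of GelMA over untreated 0.14 and that of AN-GelMA over untreated 0.49, and the endothelial median of AN-GelMA over GelMA was -0.0336; with the removed doublets kept it was -0.0749. The macrophage median of GelMA over untreated was 0.11 with the members kept in the clustering, 0.13 from means of single-cell CPM and -0.0389 in the Cd163 cluster, where that of AN-GelMA over untreated was 0.17. In the Mmp12 cluster alone the median of macrophages over keratinocytes in AN-GelMA was 1.95, and the ratio of AN-GelMA over untreated of Oas3 was -0.53. In the Pi16 fibroblast cluster, chosen after seeing the data like the Tnn cluster, the median of AN-GelMA over GelMA was 1.10. In the Tnn cluster the medians were -0.56 for AN-GelMA over GelMA, 0.48 for GelMA over untreated and -0.12 for AN-GelMA over untreated; there the AN-GelMA over GelMA ratios were -0.50 for the sum, -2.47 for Rsad2, -0.14 for Zbp1 and -0.00147 for Trim30a, and the GelMA over untreated ratios 0.44 for Oas1a, 0.33 for Oasl1, 0.50 for Usp18 and 0.65 for Zbp1. Within the nearest 100 bases upstream, an ISRE core was found in 32.4% of member genes, against 0.983% of all promoter windows and 1.01% of other genes with a probe, and a GAS core in 14.7%, against 2.55% of windows. The cause of these shifts was not tested. The groups have no replicates, so differences between animals, wounds and libraries cannot be told apart from the gel or its cargo, and members with under 30 UMIs in a class could not be compared.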

Other observations

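In each library of macrophages and fibroblasts, Rsad2 was seen more often in cells that also held Oasl2, a pair named after the values were seen. Thinned to 800 UMIs, Rsad2 was seen in 11.4%, 20.9% and 15.6% of macrophages with Oasl2 in untreated, GelMA and AN-GelMA wounds, and in 3.57%, 1.08% and 5.71% of macrophages without it. In fibroblasts the shares were 6.87%, 3.61% and 10.2% with Oasl2 and 0.91%, 0.70% and 1.54% without. The 5% of macrophages with most member UMIs held 25.7%, 26.9% and 24.8% of them, and 8.37%, 7.46% and 6.19% of all UMIs of the class. The same share of fibroblasts held 24.6%, 30.1% and 30.5% of the member UMIs. Cells with more molecules show more of any gene, and these values are given as descriptions.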
